A study of Mus musculus with 4 samples.

Results

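The Nr2f genes encode the COUP transcription factors, a branch of the nuclear receptor family. The family has 3 members in the mouse gene set used here, Nr2f1 (COUP-TFI), Nr2f2 (COUP-TFII) and Nr2f6 (EAR2), and the 3 genes were found by symbol among the 52459 rows of the deposited table. They were followed in RNA from the first pharyngeal arch, the paired outgrowth of the embryonic head that builds the upper and lower jaw. The tested embryos carried Wnt1-Cre, a recombinase driven by Wnt1 regulatory sequence and active in the neural crest lineage, together with pMes-Bmp4, a Bmp4 transgene that Cre switches on. The other group was wild-type and carried neither, so an effect of Cre alone or of the transgene insertion cannot be told apart from an effect of Bmp4. Both groups were collected between E9.5 and E9.75, with 25 to 27 somites, and each had 2 libraries. The labels do not say whether the libraries came from separate embryos, litters or pools, so p-values measure the spread between these libraries, which may be technical.

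COUP transcription factors are called orphan receptors because no natural ligand is established for them. They bind direct repeats of the nuclear receptor half-site as dimers, with one another or with the retinoid X receptors, and they often act as repressors that compete with retinoic acid receptors. In the head, Nr2f1 and Nr2f2 are expressed in neural crest mesenchyme, and in zebrafish the nr2f genes promote upper jaw identity and restrain the lower jaw program. Nr2f2 also marks veins and lymphatic vessels. Nr2f6 is more distant in sequence and is best known for its role in T cells and in neurons of the brainstem.

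The 3 proteins, of 420, 414 and 390 codons, share a DNA-binding domain built of zinc fingers. The coding sequence of the first finger and of the start of the helix that follows it is shown because it is the part that places all 3 in 1 family, and because near-identical stretches decide whether reads can be assigned to 1 gene. Lower case letters are bases that all 3 genes share, and capitals mark the 12 of 81 positions at which they do not. All run 5′ to 3′ on the minus strand of GRCm38, taken from GENCODE M21 transcripts, at chr13:78198247-78198327 for Nr2f1, chr7:70360015-70360095 for Nr2f2 and chr8:71381023-71381103 for Nr2f6.
Nr2f1: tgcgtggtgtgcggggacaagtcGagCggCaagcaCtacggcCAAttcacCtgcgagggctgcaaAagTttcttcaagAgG
Nr2f2: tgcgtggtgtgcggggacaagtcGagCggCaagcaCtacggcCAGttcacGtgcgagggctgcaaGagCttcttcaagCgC
Nr2f6: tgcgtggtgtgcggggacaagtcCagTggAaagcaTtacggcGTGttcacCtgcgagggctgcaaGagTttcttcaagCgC
Over the 168 bases of both fingers, Nr2f1 and Nr2f2 were 90.5% identical and encoded the same residue at 55 of 56 codons. Nr2f6 was 81% identical to Nr2f1 and 83.9% identical to Nr2f2, with 50 and 51 of 56 codons alike. The longest run shared by transcripts of Nr2f1 and Nr2f2 was 59 bases, in coding sequence at the start of the same finger, at chr13:78198284-78198342 and chr7:70360052-70360110.
shared run: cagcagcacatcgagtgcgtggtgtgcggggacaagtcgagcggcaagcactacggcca
Long exact matches between the genes were few. Of the 5090 different 50-base stretches in Nr2f1 transcripts, 10 also occurred in Nr2f2, which is 0.196% of Nr2f1 and 0.117% of Nr2f2, and Nr2f6 shared none with either (0 of 3192 stretches). On that count of exact stretches the 3 values are read as separate genes, though the aligner is not given. The isoforms within each gene cannot be separated in counts per gene.

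Libraries held 29607541 to 47849092 reads assigned to genes. Deposited values were read counts divided by 1 size factor per library, called normalized reads here, and 16746 genes with a mean of at least 10 were tested, all 3 Nr2f genes among them. Bmp4, the gene of the transgene, was at 2656 and 1745 normalized reads in Wnt1-Cre;pMes-Bmp4, against 681.7 and 437.1 in wild-type. It was higher in both transgenic libraries than in either wild-type library, with a log2 fold change of 1.98 ± 0.27 (SE, limma adjusted p 0.0211).

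Nr2f1 and Nr2f2 fell in the transgenic arch by close to the same amount, and Nr2f6 did not pass the test. Of the 3 genes, 2 passed as lower and 0 as higher at the limma threshold of 0.05 on the adjusted p, where 5.28% of all genes tested were lower, 2.97% higher and 8.25% either. The same 2 of 3 were lower in edgeR; Nr2f6 had an adjusted p of 0.357 there.

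**Figure D1:**
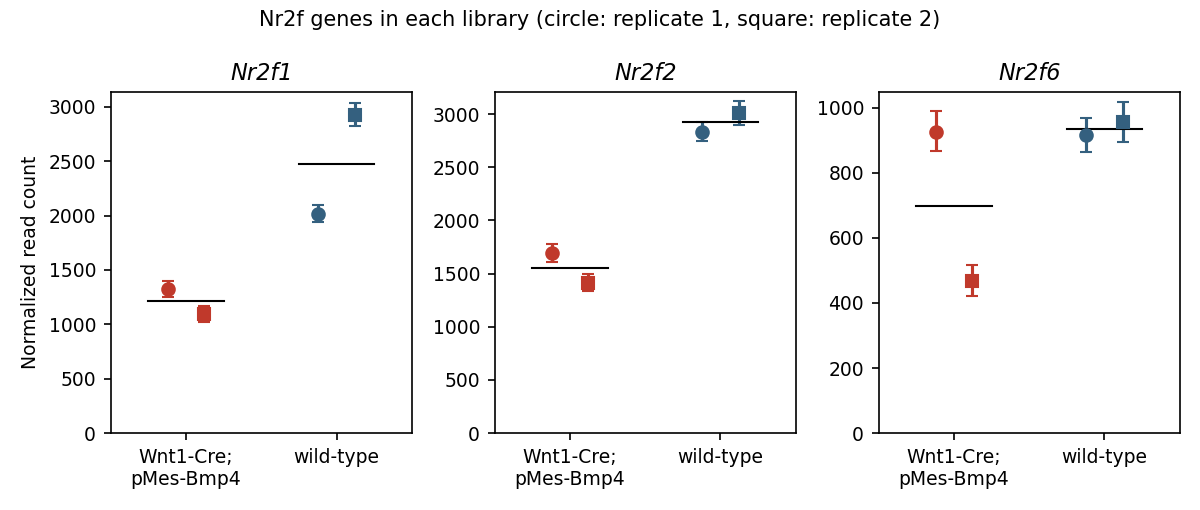
Normalized read count of Nr2f1, Nr2f2 and Nr2f6 in each library, with Wnt1-Cre;pMes-Bmp4 in red and wild-type in blue. Black lines are group means and bars are exact 95% Poisson intervals of the reads, which cover counting error only. For Nr2f1 and Nr2f2 both transgenic points lie below both wild-type points; for Nr2f6 transgenic replicate 2, at 468, lies apart from the other 3 libraries.

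Nr2f1 occupies chr13:78188973-78199757 on the minus strand of GRCm38. It was at 1327 and 1096 normalized reads in Wnt1-Cre;pMes-Bmp4 replicates 1 and 2, against 2018 and 2925 in wild-type replicates 1 and 2. The groups did not overlap, and the higher transgenic library stood at 65.8% of the lower wild-type library. Groups that do not overlap were common in this comparison, in 59.7% of genes tested, with 29.7% lower in Wnt1-Cre;pMes-Bmp4. Means were 1211 ± 163 in Wnt1-Cre;pMes-Bmp4 and 2471 ± 642 in wild-type (SD, n = 2 each). The change on the log2 scale was -1.01 ± 0.20 (SE, limma adjusted p 0.0348), or 2.01-fold lower. Its 95% interval ran from -1.49 to -0.53. In RNA of a whole arch, fewer cells of a type and less RNA per cell cannot be told apart. The wild-type libraries differed from each other by 0.54 on the log2 scale, so the size of the fall depended on them: it was -1.28 when wild-type replicate 1 was left out and -0.74 when wild-type replicate 2 was left out, with limma adjusted p of 0.115 and 0.389.

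Nr2f2 occupies chr7:70351944-70366735, also on the minus strand, and had the smallest standard error of the 3 fits. It was at 1691 and 1415 normalized reads in Wnt1-Cre;pMes-Bmp4, against 2836 and 3008 in wild-type. Both groups were narrow and far apart, with the higher transgenic library at 59.6% of the lower wild-type library. Means were 1553 ± 196 in Wnt1-Cre;pMes-Bmp4 and 2922 ± 122 in wild-type (SD, n = 2 each). The log2 fold change was -0.92 ± 0.14 (SE, limma adjusted p 0.0233), 1.89-fold lower, with a 95% interval from -1.26 to -0.58. Leaving out wild-type replicate 1 gave -0.96 (limma adjusted p 0.134), and leaving out wild-type replicate 2 gave -0.87 (limma adjusted p 0.348). Over the whole table limma then called 0 genes (3185 at an unadjusted p under 0.05) in the first case and 1 gene (1806) in the second. The lone wild-type library is assumed in those fits to vary like the transgenic ones.

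Nr2f6 occupies chr8:71374123-71381960 on the minus strand. It was at 925.7 and 468 normalized reads in Wnt1-Cre;pMes-Bmp4, against 915.3 and 954.5 in wild-type. Transgenic replicate 1 stood between the wild-type libraries, and transgenic replicate 2 was far below the other 3 libraries. These values came from 868 and 386 reads in the transgenic libraries, against 1234 and 928 in wild-type, and the exact 95% Poisson interval of transgenic replicate 2, 422.5 to 517.1, covers counting error only. Means were 696.9 ± 324 in Wnt1-Cre;pMes-Bmp4 and 934.9 ± 27.7 in wild-type (SD, n = 2 each). The log2 fold change of -0.51 ± 0.30 (SE) did not pass (limma adjusted p 0.307), and its interval, -1.20 to 0.19, holds both no change and a fall as large as that of Nr2f1. The direction rested on 1 library: without transgenic replicate 2 the value was -0.01, and without transgenic replicate 1 it was -0.996. The lone transgenic library is assumed in those fits to vary like the wild-type ones.

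Transcript composition moved with the Nr2f6 value. GC content of the longest transcript was 67.3% for Nr2f6, 60.2% for Nr2f1 and 45.3% for Nr2f2, whose long non-coding part of 2980 bases had 38.3% GC beside 62.1% in its coding part. Transgenic replicate 2 was lower than replicate 1 in GC-rich genes as a class. Genes within 2 percentage points of the GC content of Nr2f6, 34 with Nr2f6 included at a minimum mean of 50, had a median difference of -0.90 on the log2 scale between transgenic replicates 2 and 1, and Nr2f6 itself had -0.98. Nr2f1 and Nr2f2 are likewise counted in their own classes below. Between the groups, those 34 genes had a median log2 fold change of -0.56, beside -0.51 for Nr2f6. Among the 792 genes with a GC content like that of Nr2f1 the median log2 fold change was -0.13, and among the 2516 like Nr2f2 it was 0.10. Nr2f2 was 0.26 lower in transgenic replicate 2 than in replicate 1, while genes of its GC content were 0.12 higher. After each library was corrected for transcript length and GC content, Nr2f1 was at -0.81 (limma adjusted p 0.0305), Nr2f2 at -0.95 (limma adjusted p 0.0141) and Nr2f6 at 0.18 (limma adjusted p 0.467).

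**Figure D2:**
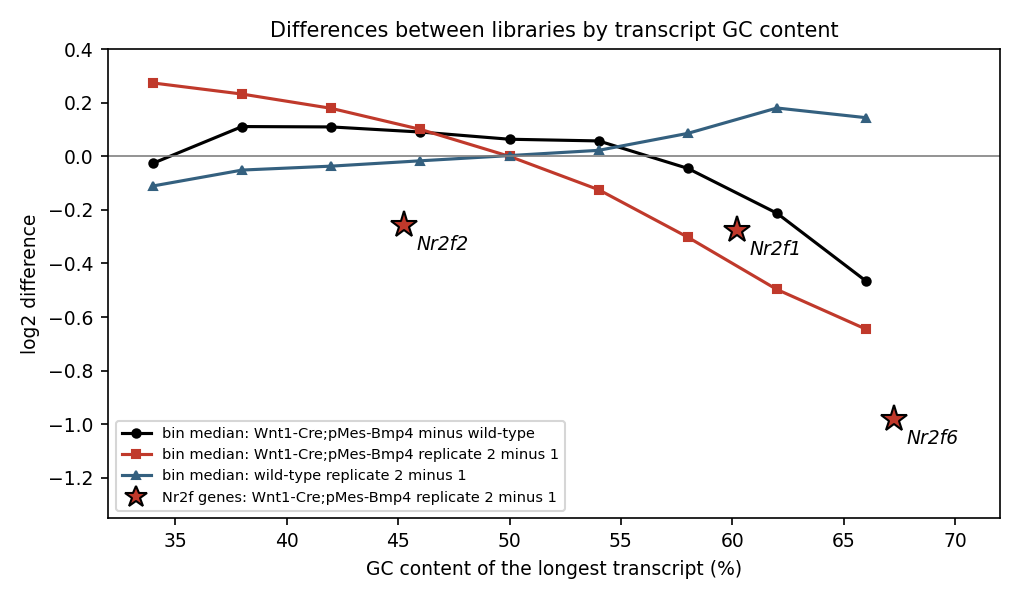
Median log2 difference of genes in bins of transcript GC content, for Wnt1-Cre;pMes-Bmp4 minus wild-type (black), transgenic replicate 2 minus 1 (red) and wild-type replicate 2 minus 1 (blue); stars are the Nr2f genes in transgenic replicate 2 minus 1. The red line falls to -0.65 in the bin from 64% to 68% GC, and Nr2f6 lies beyond it at -0.98, while Nr2f2 lies below the line at 45.3% GC.

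Transcript length also moved with genotype in these libraries. The longest transcripts are 3207 bases for Nr2f1, 4222 for Nr2f2 and 2218 for Nr2f6. Genes of similar length, within 0.25 on the log2 scale and with the member itself counted, had median log2 fold changes of 0.15, 0.01 and 0.23 around the lengths of Nr2f1, Nr2f2 and Nr2f6. With length alone corrected, Nr2f1 was at -1.13 (limma adjusted p 0.0465), Nr2f2 at -0.85 (limma adjusted p 0.0389) and Nr2f6 at -0.71 (limma adjusted p 0.204).

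**Figure D3:**
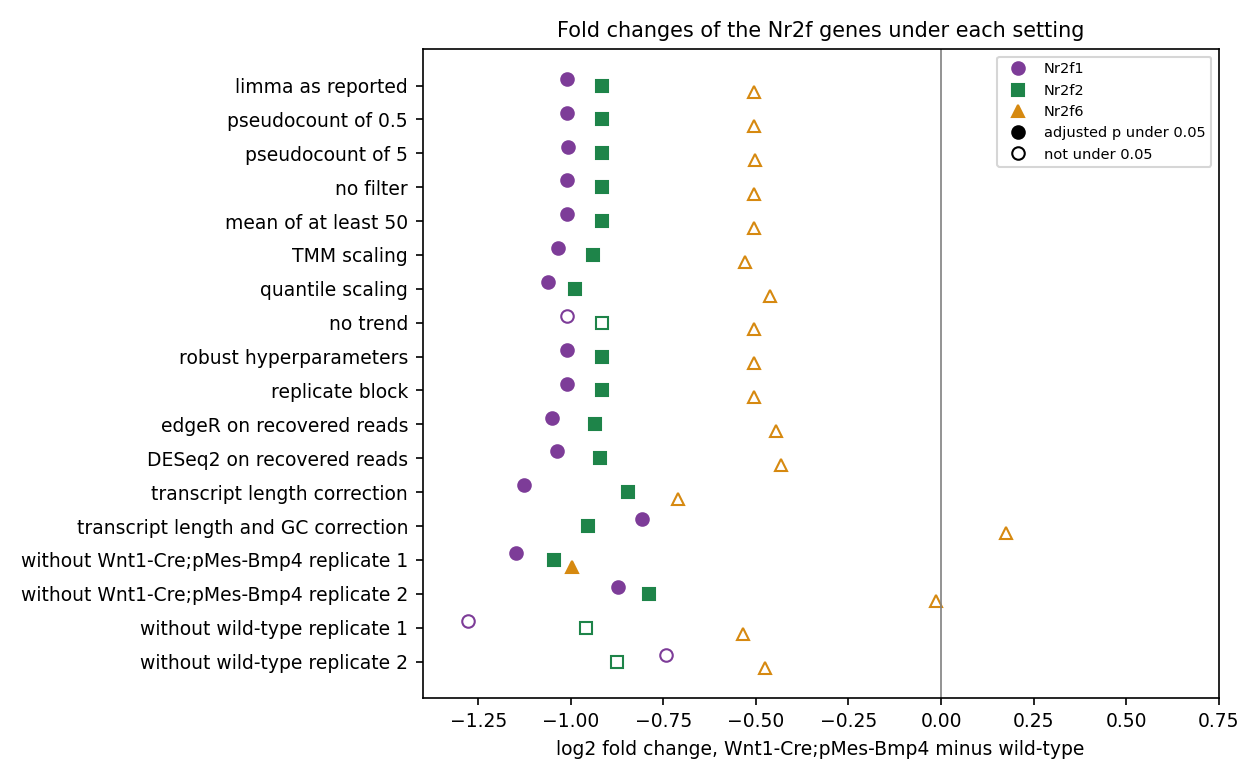
Log2 fold change of Nr2f1 (circles), Nr2f2 (squares) and Nr2f6 (triangles), Wnt1-Cre;pMes-Bmp4 minus wild-type, under each setting; filled symbols have an adjusted p under 0.05. Nr2f1 spans -1.28 to -0.74 and Nr2f2 -1.045 to -0.79, all below 0, while Nr2f6 spans -0.996 to 0.18. Settings that leave out a library take the spread of its group from the other group.

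Ratios of members within a library do not depend on its scaling. Nr2f1 over Nr2f2 was 0.784 and 0.775 in Wnt1-Cre;pMes-Bmp4, against 0.711 and 0.972 in wild-type. The transgenic ratios lay between the wild-type ones, and the log2 difference between the groups was -0.09. Nr2f2 over Nr2f6 was 1.83 and 3.02 in Wnt1-Cre;pMes-Bmp4, against 3.10 and 3.15 in wild-type, a log2 difference of -0.41. Nr2f1 over Nr2f6 was 1.43 and 2.34 in Wnt1-Cre;pMes-Bmp4, against 2.20 and 3.06 in wild-type, a log2 difference of -0.50. Exact two-sided permutation tests of these 3 pairs gave p of 1, 0.333 and 0.667, and adjusted values of 1, 0.9999 and 1. The 0.9999 comes from adjusting a permutation p already rounded to 0.3333. A comparison of 2 against 2 libraries cannot give a p of less than 0.333. Leaving out 1 library moved the difference for Nr2f2 over Nr2f6 between -0.77 and -0.05 and that for Nr2f1 over Nr2f6 between -0.86 and -0.15, and the length and GC correction gave -1.13 and -0.98. A different response of Nr2f6 from that of Nr2f1 or Nr2f2 is therefore not shown.

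Levels were compared between genes as normalized reads per kilobase of the longest transcript. Nr2f1 had 377.7 ± 50.9 in Wnt1-Cre;pMes-Bmp4 and 770.6 ± 200 in wild-type, and Nr2f2 had 367.9 ± 46.3 in Wnt1-Cre;pMes-Bmp4 and 692.2 ± 28.8 in wild-type (SD, n = 2 each). Nr2f6 had 314.2 ± 146 in Wnt1-Cre;pMes-Bmp4 and 421.5 ± 12.5 in wild-type (SD, n = 2 each). On that scale, Nr2f1 and Nr2f2 in wild-type were not separated beyond their spread and both lay above Nr2f6 in each library, while in Wnt1-Cre;pMes-Bmp4 none of the 3 was separated from the others. Of the 2983 exon bases of Nr2f6, 1622 overlap exons of Ocel1 on the opposite strand, and the strand setting of the counts is not known. The level, share and rank of Nr2f6 given here and below carry that limit. The order of the members also depended on the length used. Per kilobase of all annotated exons, Nr2f1 had 237.9 in Wnt1-Cre;pMes-Bmp4 and 485.2 in wild-type, Nr2f2 had 180.1 in Wnt1-Cre;pMes-Bmp4 and 338.8 in wild-type, and Nr2f6 had 233.6 in Wnt1-Cre;pMes-Bmp4 and 313.4 in wild-type. On that second scale Nr2f1 lay above Nr2f2 without overlap in both groups, and Nr2f6 had a higher transgenic mean than Nr2f2. Summed per kilobase of the longest transcript, the family was at 1232 and 887.9 in Wnt1-Cre;pMes-Bmp4, against 1714 and 2055 in wild-type. Nr2f6 made up 33.9% and 23.8% of that sum in Wnt1-Cre;pMes-Bmp4, against 24.1% and 20.9% in wild-type, and these shares overlapped.

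Per kilobase of the longest transcript, the family held the top of the nuclear receptors in the wild-type arch, and shared it in the transgenic arch. The ranks and shares in this paragraph were read on that length only, and the levels of the members moved with the length used. Among the 49 nuclear receptor genes, Nr2f1, Nr2f2 and Nr2f6 had the 3 highest mean levels per kilobase over the 4 libraries, at 574.2, 530 and 367.8. Nr1h2, an oxysterol receptor, followed at 363.4, with 415.1 and 338.4 in Wnt1-Cre;pMes-Bmp4, against 327.6 and 372.5 in wild-type. It stood above Nr2f2 in both transgenic libraries and below all 3 family members in both wild-type libraries. The family made up 41.1% and 38.9% of the summed level of all 49 genes in Wnt1-Cre;pMes-Bmp4, against 49.9% and 50.9% in wild-type. These shares did not overlap between the groups, as was so for 59.7% of genes tested. They are computed from the member levels given above and are no separate result.

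**Figure D4:**
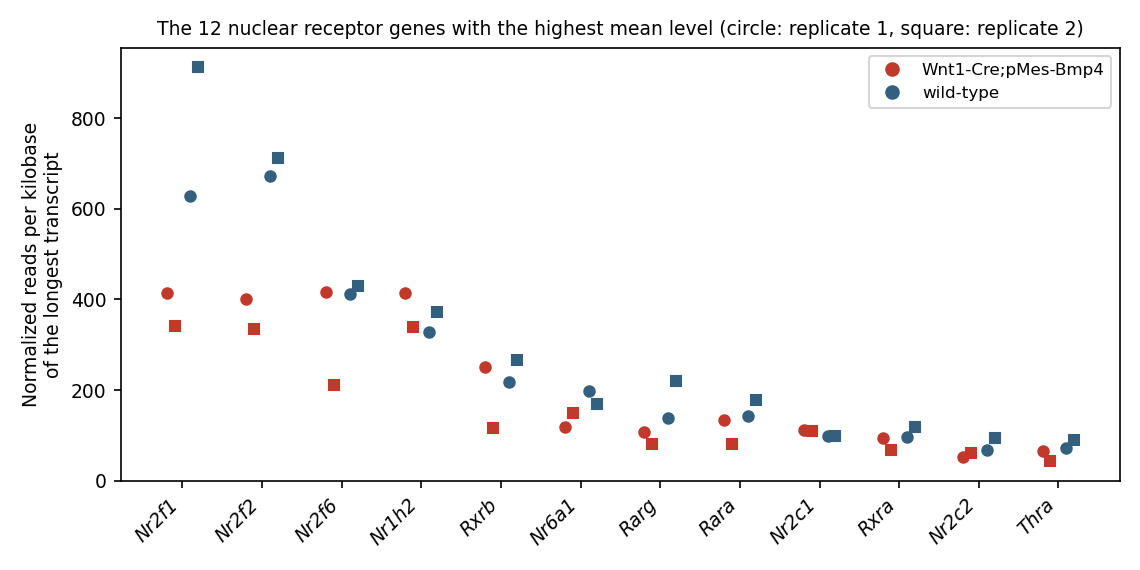
Normalized reads per kilobase of the longest transcript for the 12 nuclear receptor genes with the highest mean level, one point per library, Wnt1-Cre;pMes-Bmp4 in red and wild-type in blue. Nr2f1 and Nr2f2 lie between 335.1 and 413.7 in the transgenic libraries and between 629.1 and 912.1 in the wild-type ones.

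Of the other 46 nuclear receptors, 29 were tested and 0 passed in limma in either direction, with 4 at an unadjusted p under 0.05, 0 in edgeR and 1 lower in DESeq2. Their median log2 fold change was -0.16, beside 0.02 for all genes tested. Rarg, a retinoic acid receptor, was nearest to the threshold, at 316.8 and 240.1 normalized reads in Wnt1-Cre;pMes-Bmp4, against 408.7 and 651.1 in wild-type (log2 fold change -0.90, limma adjusted p 0.0812). Nr6a1, an orphan receptor of the early embryo, had a log2 fold change of -0.46 (limma adjusted p 0.14). The retinoid X receptors, the partners with which COUP factors form dimers, gave -0.43 for Rxra, -0.50 for Rxrb and 0.64 for Rxrg, and none passed (limma adjusted p 0.247, 0.376 and 0.336).

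Genes that make, break down or carry retinoic acid gave no call either. Of 13 tested, 0 passed in limma, with 2 at an unadjusted p under 0.05 and 0 in edgeR and DESeq2, and the median log2 fold change was 0.02. Aldh1a3, a retinaldehyde dehydrogenase, was at 4207 and 2895 normalized reads in Wnt1-Cre;pMes-Bmp4, against 2821 and 902 in wild-type (log2 fold change 1.13, limma adjusted p 0.167). Aldh1a2, the main retinaldehyde dehydrogenase of the trunk, was at 88.5 and 75.2 in Wnt1-Cre;pMes-Bmp4, against 42.3 and 2.06 in wild-type (log2 fold change 2.84, limma adjusted p 0.14). For both genes the 2 wild-type libraries stood further apart than the 2 transgenic ones.

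Coregulators through which COUP factors act fell more often than they rose. Of 16 tested, 6 were lower and 2 were higher, with a median log2 fold change of -0.62, where 5.28% of all genes tested were lower and 2.97% higher. Crebbp, an acetyltransferase coactivator, was at 1271 and 1235 normalized reads in Wnt1-Cre;pMes-Bmp4, against 2843 and 3557 in wild-type (log2 fold change -1.34, limma adjusted p 0.0194). The ligand-dependent corepressor Nrip1 was at -0.83, the coactivator Ncoa2 at -0.91 and the acetyltransferase Ep300 at -0.95, with limma adjusted p of 0.0233, 0.0274 and 0.0321. The histone deacetylases Hdac1 and Hdac3 rose, at 0.63 and 0.61 (limma adjusted p 0.0408 and 0.0417). The list holds long transcripts, with a median of 7430 bases beside 3056 for all genes tested, and after the length correction its median was -0.31 and 0 passed in either direction in limma, with 7 at an unadjusted p under 0.05. After the length and GC correction 1 was higher, Hdac3, and 2 were lower, Crebbp at -0.62 and Nrip1 at -0.44 (limma adjusted p 0.0428, 0.0264 and 0.047). Bcl11a and Bcl11b, zinc finger proteins first named for their binding to COUP factors, did not pass, at -0.06 each.

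Genes reported elsewhere as COUP factor targets in mouse tissues were tested as a short list. Of 7 tested, 1 was lower and 0 were higher in limma, with 2 at an unadjusted p under 0.05, and DESeq2 called 2 lower. A count of 1 in 7 is near the 8.25% called among all genes tested and is no result about the list. Foxc1, a forkhead gene of facial mesenchyme, was at 996.1 and 669.3 normalized reads in Wnt1-Cre;pMes-Bmp4, against 1598 and 1940 in wild-type (log2 fold change -1.11, limma adjusted p 0.0323). It was at -0.79 after the length correction (limma adjusted p 0.0749) and at -0.65 after the length and GC correction (limma adjusted p 0.0269). Nrp2, a semaphorin coreceptor, was at -0.66 (limma adjusted p 0.057), and Otx2 and Nrp1 were at -0.01 and -0.03.

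Lists of dorsal and maxillary, ventral and BMP response genes were read for their own values. Of 15 dorsal and maxillary genes tested without the Nr2f genes, 4 were lower and 1 was higher, with a median log2 fold change of -0.36. Beside the counts of these lists, 5.28% of all genes tested were lower in limma, 2.97% higher and 8.25% either, with a median of 0.02. Pou3f3, a POU factor of the proximal arch, was at -4.52, the receptor Notch2 at -1.13, the homeobox gene Six4 at -0.81 and the Notch target Heyl at -1.89, with limma adjusted p values of 0.0182, 0.0268, 0.0301 and 0.0343. Alx1, a homeobox gene of frontonasal mesenchyme, rose, at 1.33 (limma adjusted p 0.0361). After the length correction 1 of the list was lower and 0 higher in limma, with 8 at an unadjusted p under 0.05 and a median of -0.29, and after the length and GC correction 2 were lower and 1 higher. Pou3f3 passed under both corrections, and Heyl only after the length and GC correction. Notch2 passed under neither, at -0.50 and -0.40 (limma adjusted p 0.146 and 0.15). Nor did Six4, at -0.40 and -0.49 (limma adjusted p 0.152 and 0.0515), or Alx1, at 1.15 and 1.02 (limma adjusted p 0.068 and 0.0514). Of 15 ventral genes tested, 3 were lower and 0 higher in limma, edgeR gave the same counts and 6 had an unadjusted p under 0.05, with a median of -0.40. These were the G protein subunit Gnaq at -1.31 and the homeobox genes Dlx4 at -1.86 and Dlx3 at -0.97 (limma adjusted p 0.0194, 0.0286 and 0.0423). After the length correction 2 of the ventral list were lower, and after the length and GC correction 4. Of 15 BMP response genes, 8 were higher and 0 lower in limma, with a median of 0.75, and edgeR called 7 higher and DESeq2 called 9. After the length correction 5 were higher, with a median of 0.65, and after the length and GC correction 7. The pseudoreceptor Bambi was at 1.84, the homeobox gene Msx2 at 1.95, the inhibitor of differentiation Id2 at 0.98 and the zinc finger gene Gata3 at 1.56, with limma adjusted p values of 0.0182, 0.0182, 0.0194 and 0.0233.

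**Figure D5:**
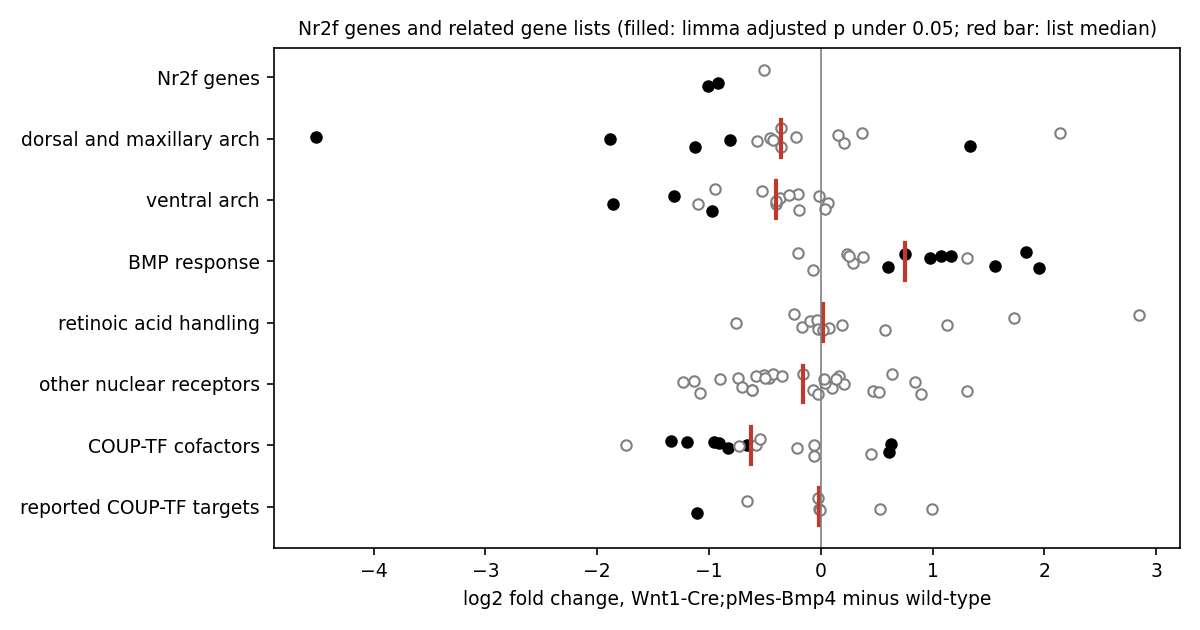
Log2 fold change, Wnt1-Cre;pMes-Bmp4 minus wild-type, of the Nr2f genes and of each tested member of 7 lists; filled points have a limma adjusted p under 0.05 and red bars are list medians. Nr2f1 and Nr2f2 are the filled points near -1 in the top row, and the list medians run from -0.62 for the coregulators to 0.75 for the BMP response.

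Genes beside the Nr2f loci were read for their own values. A830082K12Rik, a non-coding gene on the opposite strand from Nr2f1, overlaps it by 1741 bases, 123 of them in exons of both. It was at 452.2 and 497.1 normalized reads in Wnt1-Cre;pMes-Bmp4, against 520 and 625.3 in wild-type (log2 fold change -0.27, not called, limma adjusted p 0.369). B130024G19Rik, on the opposite strand from Nr2f2, overlaps it by 1826 bases, 643 of them in exons of both. It was at 83.2 and 49.7 in Wnt1-Cre;pMes-Bmp4, against 123.1 and 165.6 in wild-type, without overlap (log2 fold change -1.14, not called, limma adjusted p 0.0857). Whether the counting was strand-aware is not stated in the sources, so reads from such overlaps, those of Nr2f6 included, cannot be told apart between the partners. Next to Nr2f6, Ocel1, on the opposite strand, overlaps it by 5239 bases, 1622 of them in exons of both, out of 2983 exon bases of Nr2f6. It was at 120.5 and 82.5 in Wnt1-Cre;pMes-Bmp4, against 113.5 and 135.8 in wild-type, a log2 fold change of -0.31 (limma adjusted p 0.529), while Use1 had 0.04 and Ushbp1 -0.13 (limma adjusted p 0.872 and 0.806, neither called). Babam1, a subunit of a DNA repair complex that starts 14901 bases beyond Nr2f6, was higher, at 3946 and 3979 in Wnt1-Cre;pMes-Bmp4, against 2503 and 2310 in wild-type (log2 fold change 0.72, limma adjusted p 0.0268). It was at 0.51 after the length correction (limma adjusted p 0.0795) and at 0.58 after the length and GC correction (limma adjusted p 0.0221). Of the non-coding genes near Nr2f2, Gm29683 had a log2 fold change of -1.07 (limma adjusted p 0.349), Gm44946 was under the minimum level and Gm44948 was listed at 0.

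Profiles over the 4 libraries were compared with 10888 other genes of a mean of at least 50, by the Euclidean distance of centred log2 values. Nearest to Nr2f1 were Larp1, an RNA-binding protein, the phosphodiesterase Pde4d and the small RNA effector Ago2, at distances of 0.0451, 0.051 and 0.0539. Larp1 was at 2874 and 2321 normalized reads in Wnt1-Cre;pMes-Bmp4, against 4323 and 6074 in wild-type, with wild-type replicate 2 the highest library, as in Nr2f1. Nearest to Nr2f2 were the methylcytosine dioxygenase Tet1, the ciliary gene C2cd3 and the exchange factor Vav2, at 0.0205, 0.0279 and 0.0351. Tet1 was at 880.9 and 725 in Wnt1-Cre;pMes-Bmp4, against 1481 and 1556 in wild-type. Nearest to Nr2f6 were Cited4, a transcriptional coregulator, Adat3, a tRNA deaminase subunit, and Lrfn4, an adhesion protein of neurons, at 0.0414, 0.0615 and 0.0765. Cited4 was at 256 and 128.5 in Wnt1-Cre;pMes-Bmp4, against 260.4 and 270.5 in wild-type, with transgenic replicate 2 the low library. The transcripts of those last 3 had GC contents of 66.4%, 64.5% and 65.6%. Between members, Nr2f1 and Nr2f2 lay 0.332 apart, and Nr2f6 lay 0.786 from Nr2f1 and 0.658 from Nr2f2. With 4 libraries such distances describe shape only. Genes chosen by nearness share the high and low libraries of a member by that choice.

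Markers of facial mesenchyme, the bulk of the arch, were all detected, with 10 of 10 tested, 2 higher and 2 lower, and summed levels of 23140 to 30420 normalized reads in Wnt1-Cre;pMes-Bmp4 and 20040 to 23720 in wild-type. Prrx2, at 15750 and 11810 in Wnt1-Cre;pMes-Bmp4 and 6664 and 6995 in wild-type, differed by more than the sum did, while 7 of the 10 had negative log2 fold changes and their median was -0.38. Beside the marker counts in this paragraph, 2.97% of all genes tested were higher in limma and 5.28% lower. Vessel markers are given because Nr2f2 is also a gene of veins. Of 10 general endothelial markers 0 passed in limma or edgeR, 5 had an unadjusted p under 0.05 and DESeq2 called 2 higher, with sums of 6922 to 6997 in Wnt1-Cre;pMes-Bmp4 and 5471 to 5524 in wild-type. Of 5 venous and lymphatic markers tested 0 passed in limma or edgeR, 3 had an unadjusted p under 0.05 and DESeq2 called 1 higher and 1 lower, with sums of 2279 to 2695 in Wnt1-Cre;pMes-Bmp4 and 2550 to 2704 in wild-type. Epithelial markers summed to 33260 to 36060 in Wnt1-Cre;pMes-Bmp4 and 19980 to 26570 in wild-type, with 2 of 9 higher. Red cell markers summed to 340900 to 380800 in Wnt1-Cre;pMes-Bmp4 and 613200 to 674000 in wild-type, with 2 of 7 lower. Markers of cranial ganglia and neurons summed to 538.3 to 748.7 in Wnt1-Cre;pMes-Bmp4 and 657.2 to 916 in wild-type, with 0 of 7 called in limma, edgeR or DESeq2 and 0 at an unadjusted p under 0.05. Of 7 neural tube markers 3 were tested, 0 passed in limma, edgeR or DESeq2 or at an unadjusted p under 0.05, and Lhx5 was listed at 0 in all libraries. Of 6 arterial markers 1 was lower in limma, and 1 call in a list of 6 is no result about the list. Of 6 pharyngeal endoderm markers Nkx2-6 was higher at 2.41 in limma, Foxa2 was at -1.50 and Foxa1 at -1.06, 3 had an unadjusted p under 0.05 and DESeq2 called 1 higher and 1 lower. Of 6 cranial mesoderm markers 0 passed in limma or edgeR, 3 had an unadjusted p under 0.05 and DESeq2 called 2 higher and 1 lower, and of 3 myeloid markers 0 passed in limma, edgeR or DESeq2 or at an unadjusted p under 0.05. The marker lists with limma calls given here were also read with length alone corrected. Epithelial, arterial and pharyngeal endoderm markers then had 0 calls in limma, with 6, 2 and 3 at an unadjusted p under 0.05. Red cell markers had 1 lower, with 4 at an unadjusted p under 0.05. Facial mesenchyme markers had 0 higher and 1 lower, with 6 at an unadjusted p under 0.05. The part of the marker shifts in the values of Nr2f1 and Nr2f2 was not tested.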

How the data were processed

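The deposited table holds 1 normalized signal per gene and library: per the file headers the authors counted reads with featureCounts, and the values are normalized counts, each library scaled by a factor of its own. Fastp 0.21.0 and mm10 appear in the submitters' processing notes. Not given in the sources used here are the aligner, annotation, strand setting and normalization tool. Division by the smallest positive value of a column gave whole reads, within 0.01, for 100% of values. Per the labels' protocols, libraries were made from poly(A)-selected RNA with random hexamers.

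The members, lists, tests and alternatives were chosen with earlier results of these data known. The test was limma (version 3.58.1, under R 4.3.3, prior variance with a trend) on log2 of the value plus 1, for genes with a mean of at least 10, two-sided, with Benjamini-Hochberg adjustment over all genes and a threshold of 0.05. The log2(value + 1) scale understates changes of low genes. Residual and prior degrees of freedom were 2 and 5.26. The whole reads were also tested with edgeR 4.0.16, which gave 409 higher and 915 lower calls, and DESeq2 1.42.0. GENCODE M21 (GRCm38, the assembly that mm10 names) supplied loci, transcript lengths and GC content. Corrections subtracted, per library, a spline with 4 degrees of freedom fitted where the mean reached 50. Every fold change has wild-type as its base.

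Genes named besides the members were Bmp4, genes overlapping a member or starting within 20000 bases of it, in each list the called genes with the lowest p, at most 4, or else the lowest 2, and the 3 nearest profiles per member. Alx1, Hdac1, Hdac3, Bcl11a, Bcl11b, Otx2, Nrp1, Nr1h2, the Rxr genes and the cell type markers were named after their values were seen. Steps were tested on simulated data. The glial crest markers are not reported here.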

Additional observations from a re-analysis of the deposited data

How the results depend on the processing

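Nr2f1 and Nr2f2 were lower under all 17 alternatives and passed in 14 of them. With no trend in the prior variance they were at -1.01 and -0.92 with limma adjusted p of 0.164 and 0.147; the whole table then gave 0 higher and 0 lower in limma, with 3925 at an unadjusted p under 0.05. Leaving out 1 library at a time gave -1.28 to -0.74 for Nr2f1, -1.045 to -0.79 for Nr2f2 and -0.996 to -0.014 for Nr2f6, and 0 to 2675 genes higher and 0 to 2719 lower. Correcting for length and GC content turned Nr2f6 to 0.18 and the log2 difference of Nr2f1 over Nr2f2 to 0.15, and leaving out 1 library at a time moved that difference from -0.32 to 0.13; the cause was not tested. The length and GC correction called 646 genes higher and 743 lower, the length correction 107 and 162, DESeq2 1284 and 1582, and robust hyperparameters 809 and 1195, beside 498 and 884 as reported. The labels do not say whether same-numbered libraries share more than a number. Their deviations correlated at -0.147 across genes. With the replicate block limma called 165 higher and 543 lower, and no call among the Nr2f genes changed. A crossed block, chosen after seeing the data, called 1763 higher and 1952 lower. With 2 libraries a group, an exact test cannot reach 0.05, and calls rest on the spread borrowed across genes.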
